A study of Mus musculus with 30 samples.

Results

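Full-length MBD2a was expressed in mouse embryonic stem cells (ESCs) that lack MBD3, and the question addressed here is which genes still differ from wild type (WT) after these cells were taken through in vitro differentiation to neuronal progenitor cells (NPCs). The data are the 3 MBD2a libraries (s13, s14 and s15 of the deposited table) and the 3 WT libraries (s01, s02 and s03), which are 6 of 24 poly(A) RNA-seq libraries from 8 lines. The 3 *Mbd3* KO libraries (s04, s05 and s06) serve as the level from which the MBD2a line started, and per-library values are given in this order throughout. All lines are HA36CB1 ESCs of mixed 129 and C57BL/6 origin that carry a biotin ligase. WT cells have no further change. *Mbd3* KO cells were made with Cas9 and a pair of guide RNAs against *Mbd3* exons 2 and 3 and keep their endogenous *Mbd2*. MBD2a cells are *Mbd3* KO cells with a biotin-tagged MBD2a cDNA inserted at a single recombination site under the CAG promoter, so every MBD2a cell also lacks MBD3. Each library of WT, *Mbd3* KO and MBD2a is an individually derived clone.

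NuRD is a chromatin complex that joins histone deacetylases with a nucleosome remodeller and is known for silencing genes when stem cells leave pluripotency. MBD2 and MBD3 are related subunits that bridge the deacetylase and remodeller modules, and a given complex holds either MBD2 or MBD3. The methyl-CpG binding domain of MBD2 binds methylated DNA, whereas that of mammalian MBD3 does not. MBD2a is the longest MBD2 isoform and carries a glycine-arginine rich stretch at its N-terminus. In the differentiation used here, withdrawal of self-renewal factors and addition of retinoic acid turn ESCs into radial glia-like progenitors that express PAX6 and then proneural factors, while pluripotency, germline and extraembryonic genes are silenced.

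Library totals were 39116727, 37881563 and 42049423 counts for WT and 31875299, 32188381 and 36684317 counts for MBD2a, and CPM are counts scaled to library size. At these totals 3 counts amount to 0.0713 to 0.0792 CPM in WT and 0.0818 to 0.0941 CPM in MBD2a, before the further scaling (TMM) that all other CPM values carry. These floors cover counting error only. Reads on *Mbd3* (chr10:79855284-79862295, mm9) were 155, 149 and 157 CPM in WT, 34.2, 73.8 and 69.1 CPM in *Mbd3* KO and 71.0, 70.8 and 36.4 CPM in MBD2a, so transcripts of the edited gene were still counted, at a log2 fold change of -1.37 against WT (SE 0.274, adjusted p = 0.000395). Reads on *Mbd2*, to which the construct can add, were 40.8, 50.4 and 43.8 CPM in WT, 65.3, 64.2 and 70.9 CPM in *Mbd3* KO and 87.2, 86.3 and 67.0 CPM in MBD2a, and MBD2a was not called higher than *Mbd3* KO for *Mbd2*. Clones of the same line were not alike. WT s03 stood apart from s01 and s02 with a chi-square per gene of 187 and 160, against 24.4 between s01 and s02. MBD2a s15 stood apart from s13 and s14 with 104 and 84.3, against 52.4 between those. *Mbd3* KO s04 stood apart from s05 and s06 with 70.9 and 79.6, against 10.4 between those. A KO range given below includes s04 and can be wide for that reason. Where a count of list members called against WT moved by over 1.5 times without s03 or s15, the count without that library is given as well.

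Of the 16582 genes tested, 2797 (16.9%) were called higher and 2280 (13.7%) lower in MBD2a than in WT NPCs, where a call needed an adjusted p of less than 0.05 and more than a 2-fold difference (1 on the log2 scale). At an unadjusted p under 0.05 alone, 60.6% of genes would pass. The median log2 fold change over all genes tested was -0.01. Among the called genes, 1386 higher and 1079 lower genes differed by more than 2 on the log2 scale, and 92 higher and 277 lower genes by more than 4. All MBD2a libraries lay on the same side of all WT libraries for 92.9% of the called genes and for 56.0% of all genes tested. Against the *Mbd3* KO they were derived from, MBD2a NPCs had 142 genes called higher (0.856%) and 729 called lower (4.4%), with a median over all genes of 0.02. This second count depended on the fit, with 241 genes called when only these 2 lines were fitted and 1288 without s15, 567 without s13 and 526 without s14. Of 46 single-gene changes checked in fits of only the lines compared, 11 were no longer called. These were the calls against *Mbd3* KO of *Neurog2*, *Neurod4*, *Pax6*, *Sp8*, *Ccnd2*, *Hand1*, *H19* and *Isg15*, described below (adjusted p from 0.0943 to 0.242). The others were those of *Nanog*, *Isg15* and *H19* against WT (adjusted p from 0.0772 to 0.111). Calls named below outside these 46 were not checked gene by gene in these fits, where 23 genes were called higher than *Mbd3* KO in place of 142. For 28 genes MBD2a was called lower than WT and higher than *Mbd3* KO, and for 256 genes higher than WT and lower than *Mbd3* KO. Both contrasts share the MBD2a libraries, so they are not independent. Genes whose exons overlap a gene on the opposite strand are uncertain, since the strand setting of the counting is not given in the sources used here. Among the genes named here this concerns *Neurog3*, *Hes5*, *Pax6*, *Zic1*, *Dll1*, *Irx3*, *Gbx2*, *Ncam1*, *Notch1*, *Notch3*, *Dll4*, *Dnmt3l*, *Sycp3*, *Cubn*, *Col4a1*, *Col1a1*, *Fn1*, *Tagln*, *Tfap2a*, *Csf1r*, *Irf1*, *Irf7*, *Meg3*, *Ccnd1*, *Chd5*, *Id4*, *Eng*, *Myh7b*, *Sparcl1* and *Muc13*, and *Hoxb8*, *Khdc3*, *Tapbp*, *H19*, *Meg3* and *Eng* share exons with a gene on the same strand. Most called genes were named by a rule on size and list, and *Dll4*, *Dmrtb1*, *Fgf5*, *Gbx2*, *Hdac2*, *Hey1*, *Heyl*, *Hoxb1*, *Id2*, *Id3*, *Irf1*, *Irgm1*, *Krt7*, *Lfng*, *Lmx1b*, *Msx1*, *Nkx2-9*, *Otx2*, *Parp14*, *Pecam1*, *Plxna2*, *Pou3f1*, *Pou3f3*, *Pou4f1*, *Prl3d1*, *Rarg*, *Rbfox3*, *Stra8*, *Tagln*, *Tdrkh* and *Tek* were picked with their values in view.

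The plot of 32 gene lists shows how far each list was shifted. The lowest medians were those of postmitotic neuron genes (-4.15), proneural factors (-4.04), neural tube patterning factors (-3.27), the Notch pathway (-2.45), and, both at -2.41, mesenchyme genes and the neuronal surface markers of the study. The highest were those of primitive and visceral endoderm (2.66), interferon-stimulated (2.59), pluripotency (2.57), germline and oocyte (2.5) and keratin and epithelial adhesion genes (2.03).

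**Figure D1:**
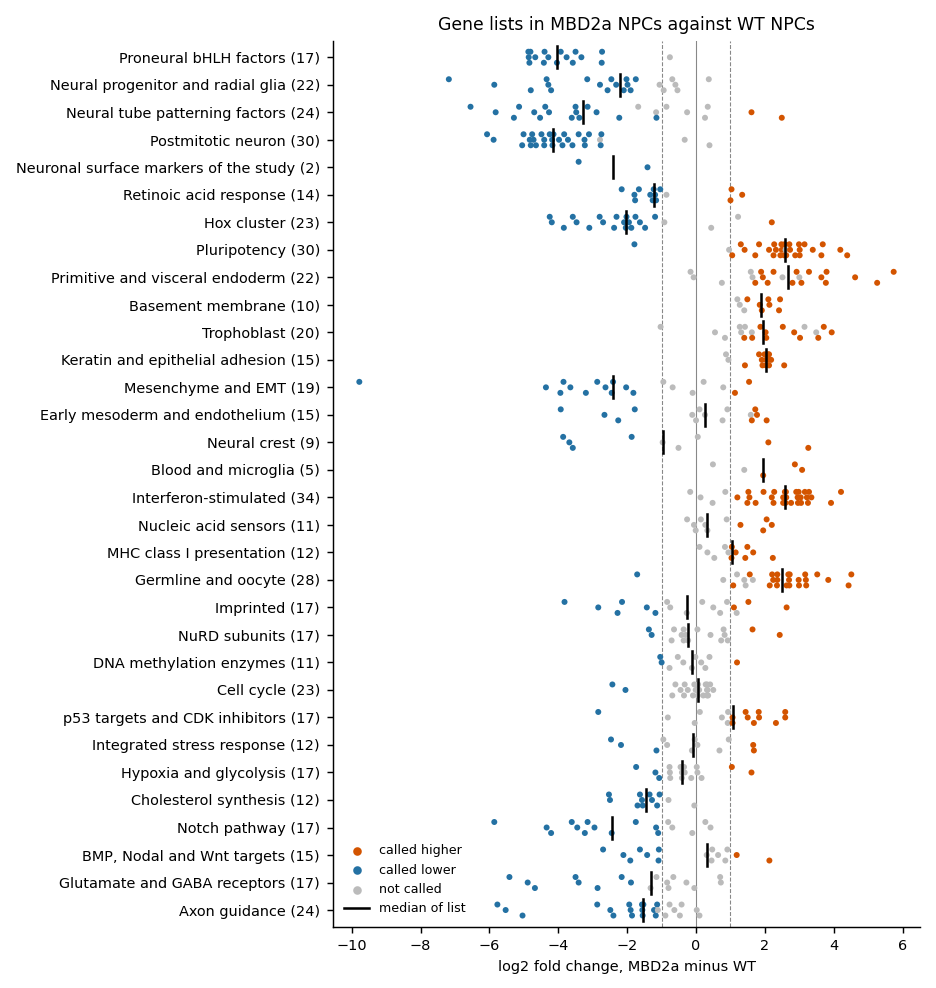
Each point is a gene of a list, placed by its log2 fold change in MBD2a against WT NPCs (x axis); the number of genes tested is given after each list name, orange and blue mark called genes, grey marks genes that were not called, and black bars are list medians. The median was -4.15 for postmitotic neuron genes, -4.04 for proneural factors, 2.57 for pluripotency genes and 2.59 for interferon-stimulated genes; *Lum*, the leftmost point, had no reads in MBD2a, so its position depends on the prior count.

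Proneural factors, the basic helix-loop-helix (bHLH) proteins that commit progenitors to the neuronal fate, stayed far below WT. Of 17 tested, 16 were called lower in MBD2a and 0 higher, with a median log2 fold change of -4.04. *Neurog1* (chr13:56351866-56353524), which starts neurogenesis, had 125, 176 and 100 CPM in WT and 2.65, 10.3 and 1.15 CPM in MBD2a. All MBD2a libraries lay below all WT libraries, with a log2 fold change of -4.84 (SE 0.526, adjusted p = 1.59e-06). *Neurod4* had 45.8, 63.4 and 31.8 CPM in WT and 1.15, 3.62 and 0.204 CPM in MBD2a. *Olig2*, which specifies motor neuron and oligodendrocyte progenitors, had 2.44, 8.91 and 3.02 CPM in WT and 0.144, 0.206 and 0.153 CPM in MBD2a. *Neurog3* was the exception, with 0.725, 0.770 and 0.243 CPM in WT and 0.432, 0.471 and 0.127 CPM in MBD2a.

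Among these factors, 2 were above the knockout level. *Neurog2* (chr3:127336054-127338549) had 0.343, 0.465 and 0.476 CPM in *Mbd3* KO, 1.78, 4.09 and 0.382 CPM in MBD2a and 48.3, 75.4 and 33.0 CPM in WT. It was called higher in MBD2a than in *Mbd3* KO (log2 fold change 2.24, SE 0.639, adjusted p = 0.0340), although s15 overlapped the KO libraries and the call was lost without any single KO library, s13 or s14 (adjusted p = 0.312 without s14). *Neurod4*, at 0.143, 0.310 and 0.264 CPM in *Mbd3* KO, was the other proneural gene called higher than the knockout (2.71, SE 0.781, adjusted p = 0.0358), and s15 again lay within the KO range, with an adjusted p of 0.385 without s14 and no call without s13 or any single KO library. Summed over the list, MBD2a libraries had 61.2, 99.3 and 28 CPM, *Mbd3* KO 19.2, 45.2 and 56.3 CPM and WT 1110, 1200 and 724 CPM.

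Neural progenitor and radial glia genes were called lower in 16 of 22 cases and higher in 0, with a median of -2.21. *Fabp7* (chr10:57504687-57508256), a fatty acid binding protein of radial glia, had the largest fall of the list, from 65.7, 41.3 and 35.7 CPM in WT to 0.518, 0.177 and 0.280 CPM in MBD2a (log2 fold change -7.18, SE 0.633, adjusted p = 3.35e-07). The *Mbd3* KO level was 0.343, 0.376 and 0.291 CPM. *Hes5*, the Notch effector that keeps radial glia undifferentiated, had 87.8, 99.6 and 135 CPM in WT and 1.30, 3.68 and 0.663 CPM in MBD2a. Nestin (*Nes*), an intermediate filament of progenitors, had 340, 290 and 215 CPM in WT and 63.4, 74.9 and 59.3 CPM in MBD2a, a log2 fold change of -2.10 (SE 0.219, adjusted p = 1.14e-06). By these markers the MBD2a libraries, which are labelled as NPCs, lay far below the WT NPCs. In bulk samples fewer cells of a type and less RNA per cell cannot be told apart.

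*Pax6* (chr2:105509053-105543317), the transcription factor that marks these progenitors, held an intermediate level. WT libraries had 142, 168 and 197 CPM, *Mbd3* KO libraries 3.52, 12.2 and 14.1 CPM, and MBD2a libraries 58.9, 58.7 and 9.99 CPM. MBD2a s13 and s14 lay between the other groups, and s15 lay within the KO range. *Pax6* was called lower than WT (log2 fold change -1.99, SE 0.441, adjusted p = 0.000941) and higher than *Mbd3* KO (2.09, SE 0.456, adjusted p = 0.00648), the latter not when only these 2 lines were fitted (adjusted p = 0.200) or when the change was tested against the fold threshold itself (adjusted p = 0.165). *Zic1*, *Pou3f3* and *Dll1* of the same list were also called both lower than WT and higher than the knockout. *Pou3f3*, a POU factor of neural progenitors, had 199, 177 and 124 CPM in WT, 1.37, 3.23 and 3.09 CPM in *Mbd3* KO and 7.68, 15.5 and 2.62 CPM in MBD2a. *Sox2*, shared by ESCs and neural progenitors, was not called, with 277, 264 and 266 CPM in WT and 103, 196 and 122 CPM in MBD2a.

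Neural tube patterning factors, which give progenitors their dorsal to ventral and anterior to posterior position, were called lower in 16 of 24 cases and higher in 2, with a median of -3.27. *Msx3*, a dorsal neural tube homeobox gene, had 289, 220 and 150 CPM in WT and 2.36, 2.98 and 1.73 CPM in MBD2a, a log2 fold change of -6.55 (SE 0.552, adjusted p = 2.54e-07). *Pax3* (chr1:78097842-78193709), a dorsal paired box factor, had 216, 161 and 140 CPM in WT and 2.42, 3.92 and 2.85 CPM in MBD2a. *Dbx1*, of intermediate progenitors, had 102, 134 and 186 CPM in WT and 3.42, 14.1 and 0.892 CPM in MBD2a. The MBD2a libraries lay below the WT libraries for these 3 genes. *Irx3* was called lower than both lines, with 219, 192 and 249 CPM in WT, 61.8, 40.1 and 52.2 CPM in *Mbd3* KO and 17, 30.8 and 26.7 CPM in MBD2a. *Lmx1b* and *Nkx2-9* were the exceptions called higher. *Nkx2-9* had 0.590, 1.05 and 1.19 CPM in WT and 6.50, 4.83 and 4.69 CPM in MBD2a.

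*Sp8*, a zinc finger factor of the developing brain and limb, had the largest rise over the knockout among genes that were called in both contrasts, averaged 1 or more in log2 CPM and did not overlap WT. It had 0.200, 0.398 and 0.529 CPM in *Mbd3* KO, 3.40, 6.01 and 1.10 CPM in MBD2a and 43.0, 47.6 and 50.2 CPM in WT. All MBD2a libraries lay between the other groups, with a log2 fold change of 3.17 against *Mbd3* KO (SE 0.528, adjusted p = 0.000744) and -3.76 against WT (SE 0.374, adjusted p = 7.72e-07). The call against *Mbd3* KO was lost when only these 2 lines were fitted (3.15, adjusted p = 0.0943). *Msx1*, a homeobox gene of the dorsal midline, and *Gbx2*, of the anterior hindbrain, were also called higher than the knockout. *Gbx2* had 45.0, 46.8 and 22.9 CPM in WT, 9.15, 18.7 and 17.7 CPM in *Mbd3* KO and 82.1, 38.7 and 16.5 CPM in MBD2a, so s13 was above every WT library and s15 within the KO range.

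Postmitotic neuron genes were called lower in 27 of 30 cases and higher in 0, with a median of -4.15. *Tubb3* (chr8:125935324-125945915), the neuronal beta-tubulin, had 1160, 866 and 588 CPM in WT and 55.5, 85.0 and 25.1 CPM in MBD2a, a log2 fold change of -3.98 (SE 0.405, adjusted p = 9.46e-07). *Dcx*, a microtubule protein of migrating neurons, had 443, 395 and 108 CPM in WT and 18.1, 21.8 and 2.34 CPM in MBD2a. *Myt1l*, a zinc finger factor that represses non-neuronal genes, had 22.1, 15.0 and 2.80 CPM in WT and 0.288, 0 and 0.280 CPM in MBD2a. WT s03 was the lowest WT library for these 3 genes and s15 the lowest MBD2a library for *Tubb3* and *Dcx*. Summed over the list, WT had 6060, 5210 and 2530 CPM and MBD2a 283, 434 and 121 CPM, against 162, 317 and 400 CPM in *Mbd3* KO. *Rbfox3*, a splicing factor of mature neurons, was lower even than the knockout, with 30.0, 27.9 and 10.2 CPM in WT, 3.86, 10.4 and 11.2 CPM in *Mbd3* KO and 2.07, 1.77 and 1.35 CPM in MBD2a. *Pou4f1*, a POU factor of sensory neurons, was not called against WT and was called higher than the knockout, with 11.3, 9.85 and 5.26 CPM in WT, 2.34, 3.87 and 2.64 CPM in *Mbd3* KO and 9.07, 5.89 and 5.96 CPM in MBD2a. *Slc17a6* and *Isl1* were not called either.

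The heat map of lineage and response genes shows these levels by library.

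**Figure D2:**
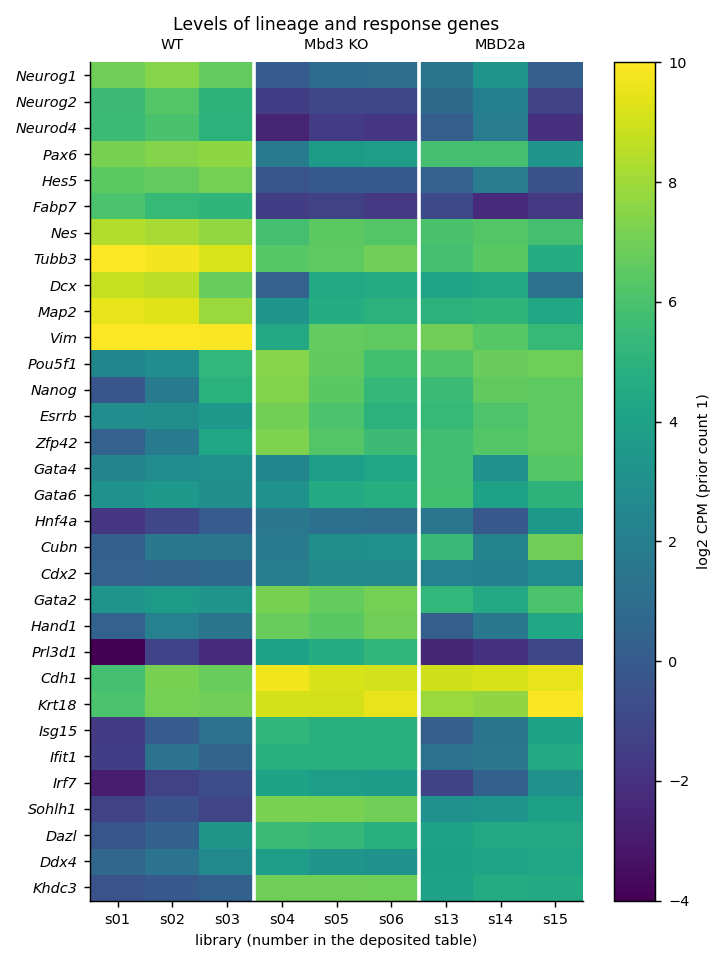
Rows are genes and columns the 9 libraries of WT, *Mbd3* KO and MBD2a NPCs; colour gives log2 CPM with a prior count of 1. Neuronal genes such as *Tubb3* (1160, 866 and 588 CPM in WT) are bright in WT alone, *Pax6* is intermediate in s13 and s14, and interferon genes such as *Isg15* (17.6 CPM in s15) are brighter in s15 than in the other MBD2a libraries.

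Genes of neuronal connections followed. *Cd24a* and *Ncam1*, whose proteins CD24 and CD56 are the surface markers used by the study to count NPCs, were both called lower. *Cd24a* had 576, 592 and 421 CPM in WT and 220, 209 and 170 CPM in MBD2a, and *Ncam1* had 261, 215 and 85.2 CPM in WT and 24.5, 17.8 and 10.6 CPM in MBD2a. Axon guidance genes were called lower in 16 of 24 cases and higher in 0 (median -1.54), and glutamate and GABA receptor genes in 8 of 17 cases and 0 (median -1.32). *Robo3*, a receptor needed for commissural axons to cross the midline, had 794, 447 and 298 CPM in WT and 10.9, 18.9 and 3.75 CPM in MBD2a. *Dcc*, the netrin receptor that attracts commissural axons, had 92.1, 99.2 and 27.1 CPM in WT and 1.73, 4.09 and 0.892 CPM in MBD2a. *Gria1*, an AMPA receptor subunit, had 12.9, 10.5 and 5.79 CPM in WT and 0.144, 0.412 and 0.127 CPM in MBD2a. *Plxna2*, a semaphorin receptor, was called higher than *Mbd3* KO, with 12.9, 31.6 and 32.9 CPM in the knockout, 202, 88.2 and 29.2 CPM in MBD2a and 288, 288 and 114 CPM in WT, where s15 again lay within the KO range.

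Notch pathway genes, which hold progenitors back from differentiation, were called lower in 12 of 17 cases and higher in 0, with a median of -2.45. Ligands of progenitors lay far below WT. *Dll1* had 144, 115 and 97.9 CPM in WT and 4.84, 10.0 and 4.51 CPM in MBD2a, a log2 fold change of -4.21 (SE 0.346, adjusted p = 2.17e-07). *Dll3* had 64.4, 60.5 and 47.9 CPM in WT and 1.81, 4.74 and 2.01 CPM in MBD2a. Among receptors, *Notch1* had 252, 287 and 113 CPM in WT and 58.0, 66.2 and 69.9 CPM in MBD2a, whereas *Notch2* and *Notch3* were not called. *Rbpj*, the DNA-binding mediator of the pathway, was not called, with 213, 223 and 163 CPM in WT and 176, 186 and 193 CPM in MBD2a. *Lfng*, a glycosyltransferase that modifies Notch receptors, was lower than in either line, with 45.6, 48.7 and 71.2 CPM in WT, 24.3, 31.6 and 27.8 CPM in *Mbd3* KO and 5.07, 6.42 and 7.11 CPM in MBD2a. *Dll4*, *Hey1* and *Heyl* were likewise called lower than WT and lower than *Mbd3* KO.

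Hox genes, which record position along the body axis and are switched on by retinoic acid, were called lower in 19 of 23 cases and higher in 1, with a median of -2.04. A gene at the 3′ end of its cluster departed from the rest. *Hoxb1* had 20.2, 30.7 and 29.5 CPM in WT, 24.9, 51.4 and 47.9 CPM in *Mbd3* KO and 180, 138 and 51.0 CPM in MBD2a, and was called higher than either. Genes further along this cluster were lower. *Hoxb8* had 820, 888 and 509 CPM in WT and 87.2, 75.1 and 22.8 CPM in MBD2a, a log2 fold change of -3.58 (SE 0.559, adjusted p = 4.21e-05). *Hoxb9* had 1150, 986 and 262 CPM in WT and 75.6, 73.4 and 18.2 CPM in MBD2a. *Hoxc8* was not called. *Hoxc9*, the neighbour of *Hoxc8* and not a member of the list, was called higher than either line, with 2.42, 2.12 and 1.02 CPM in WT, 0.257, 1.46 and 1.24 CPM in *Mbd3* KO and 9.81, 2.53 and 4.54 CPM in MBD2a.

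Genes of retinoic acid signalling were called lower in 10 of 14 cases and higher in 3, with a median of -1.21. *Cyp26a1*, a retinoic acid degrading enzyme and direct target of the signal, was among the 3, with 409, 375 and 488 CPM in WT and 961, 826 and 762 CPM in MBD2a. No MBD2a library overlapped WT, and the log2 fold change of 1.00 (SE 0.259, adjusted p = 0.00309) lay just past the threshold and was 0.92 without s02 or s13 and 0.97 without s01. *Rarg*, the receptor of undifferentiated cells, had 31.0, 38.7 and 29.4 CPM in WT and 62.1, 71.2 and 117 CPM in MBD2a. *Rarb*, a receptor that the signal induces, had 342, 327 and 208 CPM in WT and 126, 86.8 and 64.7 CPM in MBD2a. *Crabp1*, a retinoic acid binding protein, had 96.2, 131 and 140 CPM in WT and 18.7, 52.7 and 11.1 CPM in MBD2a. Without s01 or without s13, 1 gene of the list was called higher, and without s02 or s03 2.

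Pluripotency genes were called higher in 27 of 30 cases and lower in 1, with a median of 2.57. *Pou5f1* (chr17:35642982-35647721), which encodes OCT4, had 5.26, 7.15 and 38.7 CPM in WT and 72.6, 112 and 121 CPM in MBD2a. The groups did not overlap, and the log2 fold change was 2.57 (SE 0.778, adjusted p = 0.00894). *Nanog*, a homeobox factor of the naive state, had 0.805, 3.33 and 30.7 CPM in WT and 46.1, 94.7 and 91.6 CPM in MBD2a, and only just passed the test (log2 fold change 2.73, SE 1.14, adjusted p = 0.0488). WT s03 had the highest WT level of both genes, and *Nanog* was not called without s01, s02, s14 or s15 (adjusted p from 0.0889 to 0.145). *Esrrb*, an orphan nuclear receptor of naive cells with less spread in WT, had 7.27, 7.56 and 10.9 CPM in WT and 42.2, 71.7 and 91.1 CPM in MBD2a (log2 fold change 2.99, SE 0.568, adjusted p = 0.000248). *Dnmt3l*, a cofactor of de novo DNA methylation, had 0.671, 1.18 and 4.26 CPM in WT and 16.9, 30.8 and 83.2 CPM in MBD2a. *Fgf4*, the growth factor that drives ESCs out of the naive state, had 0.0537, 0.110 and 0.852 CPM in WT and 4.60, 6.04 and 8.87 CPM in MBD2a. Summed over the list, WT had 166, 229 and 462 CPM, MBD2a 1350, 1780 and 1830 CPM and *Mbd3* KO 2430, 1320 and 900 CPM, so the MBD2a sums lay within the KO range. Without s03, 25 genes of the list were called higher, without s15 24 and without s01 21, and the median was 3.64 without s03.

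*Fgf5*, a growth factor of the primed epiblast, was called higher than WT, with 1.21, 1.84 and 0.998 CPM in WT and 5.90, 1.38 and 2.68 CPM in MBD2a, where s14 lay within the WT range. *Otx2*, a homeobox factor of the postimplantation epiblast, was called higher than either line, with 2.36, 3.71 and 2.14 CPM in WT, 2.12, 2.72 and 1.72 CPM in *Mbd3* KO and 4.55, 4.33 and 8.03 CPM in MBD2a. *Pou3f1*, a POU factor of epiblast and neural cells, was the pluripotency list member called lower, with 3.33 to 4.78 CPM in MBD2a and 5.38 CPM in s03, the lowest WT library. *Dppa3* and *Dppa5a* were not called. *Dppa5a* had 1.56, 5.25 and 57.9 CPM in WT and 71.1, 133 and 190 CPM in MBD2a, which did not overlap.

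Germline and oocyte genes, many of which are silenced by DNA methylation outside the germline, were called higher in 22 of 28 cases and lower in 1, with a median of 2.5. Promoter sequences are shown for a pair of them because CACGTG, the E-box that E2F6 and MGA partner proteins bind, is frequent in promoters of this list. It was found in 12 of 28 windows of the list (42.9%) and in 9.14% of the 16582 windows of genes tested, where a window holds 250 bases before and 50 after the annotated start site on mm9. Over all genes it was no more frequent where genes were called higher than WT (8.51%) than where they were not called (9.69%). Among list members without a match were *Dazl*, *Khdc3* and *Sohlh2*. CACGTG is its own reverse complement, so the strand does not matter. The stretches below are the 150 bases before the start site on the strand of the gene, 5′ to 3′, with CACGTG in capitals, for *Sycp3* (chr10:87922164-87922313, plus strand), with copies starting at -46 and -25, and *Ddx4* (chr13:113442519-113442668, minus strand), with a copy at -29.
Sycp3: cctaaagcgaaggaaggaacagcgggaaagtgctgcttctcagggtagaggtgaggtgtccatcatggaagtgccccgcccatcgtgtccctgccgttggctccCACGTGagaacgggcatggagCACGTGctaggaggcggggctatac
Ddx4: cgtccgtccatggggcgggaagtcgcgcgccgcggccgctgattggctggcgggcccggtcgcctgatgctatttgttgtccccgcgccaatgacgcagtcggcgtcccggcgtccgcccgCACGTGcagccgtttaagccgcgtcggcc
A match is a description of the letters and not a binding site. *Ddx4* (chr13:113388541-113442518), the germ cell RNA helicase, had 1.53, 2.45 and 6.28 CPM in WT and 15.4, 18.1 and 19.2 CPM in MBD2a, a log2 fold change of 2.35 (SE 0.572, adjusted p = 0.00200). *Sycp3*, a component of the meiotic chromosome axis, was not called, with 1.05, 0.935 and 2.26 CPM in WT and 0.950, 2.03 and 4.33 CPM in MBD2a.

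Within this list the distance to the knockout differed from gene to gene. *Sohlh1* (chr2:25698515-25702768), a bHLH factor of early germ cells, had 0.376, 0.660 and 0.438 CPM in WT, 144, 144 and 125 CPM in *Mbd3* KO and 8.40, 9.63 and 15.6 CPM in MBD2a. No library overlapped between the 3 lines, with log2 fold changes of 4.51 against WT (SE 0.400, adjusted p = 3.35e-07) and -3.61 against *Mbd3* KO (SE 0.300, adjusted p = 4.81e-07). *Khdc3*, a component of the subcortical maternal complex of the oocyte, had 0.725, 0.908 and 1.27 CPM in WT, 125, 123 and 120 CPM in *Mbd3* KO and 16, 24.1 and 23.2 CPM in MBD2a. Its log2 fold changes were 4.43 against WT (SE 0.517, adjusted p = 2.90e-06) and -2.54 against *Mbd3* KO (SE 0.409, adjusted p = 0.000534). *Dmrtb1*, a doublesex-related factor of spermatogonia, was above either line, with 1.5, 2.15 and 4.67 CPM in WT, 3.77, 9.27 and 7.78 CPM in *Mbd3* KO and 29.8, 34.4 and 13.5 CPM in MBD2a. *Stra8*, the retinoic acid induced gatekeeper of meiosis, had 32.4, 109 and 333 CPM in WT, 662, 892 and 752 CPM in *Mbd3* KO and 1330, 1570 and 844 CPM in MBD2a. Its WT libraries spread widely, with s03 highest. *Tdrkh*, a piRNA pathway protein, was the member called lower. Without s15 or s03, 19 and 24 genes of the list were called higher, and the median was 3.98 without s03.

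Primitive and visceral endoderm genes, which mark the extraembryonic layer that nourishes the early embryo, were called higher in 15 of 22 cases and lower in 0, with a median of 2.66. Their levels differed between MBD2a clones. *Gata4*, a founding transcription factor of the lineage, had 4.88, 7.04 and 8.20 CPM in WT and 51.3, 8.40 and 80.7 CPM in MBD2a (log2 fold change 2.80, SE 0.955, adjusted p = 0.0181). MBD2a s14 was barely above the highest WT library, and the call was lost without s01 (adjusted p = 0.0627) or s15 (adjusted p = 0.0820). *Cubn*, an uptake receptor of visceral endoderm, had 1.18, 3.08 and 2.80 CPM in WT and 43.5, 4.68 and 126 CPM in MBD2a. *Apob*, the core protein of lipoproteins, had 0, 0.385 and 0.755 CPM in WT and 5.15, 1.5 and 56.1 CPM in MBD2a. *Fga*, the fibrinogen alpha chain, had 0.0805, 0.330 and 0.730 CPM in WT and 20.7, 19.9 and 4.97 CPM in MBD2a, so here s15 was the lowest. *Sox17*, also an endoderm factor, was not called, with 18.5, 25.7 and 28 CPM in WT and 16.3, 9.07 and 38.9 CPM in MBD2a. Without s15, 8 genes of the list were called higher, as without s01, and without s03 13.

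Basement membrane genes, which the parietal endoderm makes in large amounts, were called higher in 7 of 10 cases and lower in 0, with a median of 1.88. *Col4a1* (chr8:11198423-11312826), a type IV collagen chain, had 267, 376 and 309 CPM in WT and 1610, 286 and 2270 CPM in MBD2a, so s14 lay within the WT range and s13 and s15 well above it (log2 fold change 2.13, SE 0.783, adjusted p = 0.0270). The call was lost without any single WT library, s13 or s15 (adjusted p from 0.0507 to 0.118). *Lama5*, a laminin chain of epithelia, had 75.7, 121 and 63.9 CPM in WT and 456, 404 and 520 CPM in MBD2a, with no overlap (2.41, SE 0.264, adjusted p = 1.73e-06). Summed over the list, MBD2a had 8130, 3430 and 8020 CPM and WT 1660, 2230 and 1610 CPM. Without s15, 5 genes were called higher, and without s03 or without s13 4.

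The plot of list positions by library shows that MBD2a clones lay further apart on the endoderm, trophoblast and interferon lists than on the germline list.

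**Figure D3:**
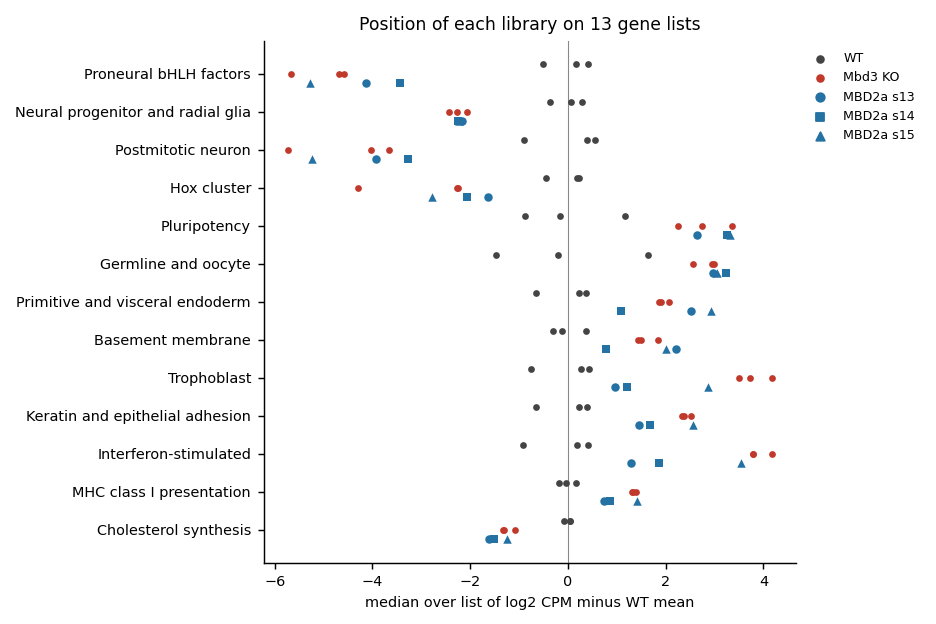
For 13 gene lists, the median over genes of log2 CPM minus the WT mean (x axis) is drawn for each WT, *Mbd3* KO and MBD2a library, with a symbol for each MBD2a clone. On the interferon list s13, s14 and s15 lay at 1.29, 1.86 and 3.54, and on the germline list the MBD2a and *Mbd3* KO libraries overlapped.

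Trophoblast genes, which mark the outer extraembryonic lineage, were called higher than WT in 11 of 20 cases and lower in 0, with a median of 1.94. Against *Mbd3* KO, 9 of the 20 were called lower and 0 higher, where 4.4% of all genes tested were lower. The members differed from each other. *Eomes*, a T-box factor of the early lineage, had 0.456, 0.633 and 0.730 CPM in WT, 20.8, 8.56 and 5.05 CPM in *Mbd3* KO and 3.74, 4.86 and 12.8 CPM in MBD2a, a log2 fold change of 3.55 against WT (SE 0.705, adjusted p = 0.000379). *Cdx2*, a homeobox factor of the same stage, had 1.29, 1.35 and 1.58 CPM in WT and 4.35, 4.18 and 6.91 CPM in MBD2a. *Elf5* and *Ets2*, transcription factors of trophoblast stem cells, were not called. *Elf5* had 0.537, 1.13 and 0.779 CPM in WT and 1.15, 0.678 and 4.08 CPM in MBD2a, and *Ets2* 37.8, 50.3 and 35.7 CPM in WT and 53, 61.6 and 107 CPM in MBD2a. *Gcm1*, a factor of syncytiotrophoblast differentiation, had the largest rise of the list, from 0.0537, 0.0550 and 0.682 CPM in WT to 0.777, 3.06 and 8.89 CPM in MBD2a, with no overlap. *Hand1* (chr11:57642207-57646320), a bHLH factor of giant cells, had 1.32, 4.32 and 2.53 CPM in WT, 106, 85.5 and 125 CPM in *Mbd3* KO and 1.15, 3.03 and 20.5 CPM in MBD2a. It was not called against WT and was called lower than *Mbd3* KO (log2 fold change -3.66, SE 0.720, adjusted p = 0.00291), though not when only these 2 lines were fitted (adjusted p = 0.102). *Prl3d1*, a placental lactogen of giant cells, had 0.0268, 0.413 and 0.170 CPM in WT, 15.8, 25.8 and 36.6 CPM in *Mbd3* KO and 0.144, 0.236 and 0.484 CPM in MBD2a (-6.45 against *Mbd3* KO, SE 0.488, adjusted p = 1.10e-07). Its family has near-identical members, so its counts are uncertain, like those of the other multigene families named here (interferon-induced and MHC class I genes). *Krt7*, a keratin of trophoblast, had 10.9, 27.6 and 22.6 CPM in WT and 41.6, 67.2 and 385 CPM in MBD2a. Summed over the list, MBD2a had 265, 322 and 870 CPM, WT 80.3, 137 and 122 CPM and *Mbd3* KO 1560, 1250 and 1540 CPM. Without s15, 9 genes were called higher than WT.

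Keratin and epithelial adhesion genes were called higher in 13 of 15 cases and lower in 0 (median 2.03), and mesenchyme and EMT genes were called lower in 12 of 19 cases and higher in 2, or 1 without s01 (median -2.41). *Cdh1* (chr8:109127251-109194146), E-cadherin, had 56.2, 138 and 107 CPM in WT and 507, 563 and 710 CPM in MBD2a (log2 fold change 2.56, SE 0.388, adjusted p = 3.21e-05), whereas *Cdh2*, N-cadherin, had 347, 315 and 208 CPM in WT and 58.4, 50.0 and 10.4 CPM in MBD2a (-2.87, SE 0.568, adjusted p = 0.000361). For both cadherins the MBD2a libraries did not overlap WT. *Krt18*, a keratin of simple epithelia, had 64.4, 134 and 125 CPM in WT and 236, 205 and 963 CPM in MBD2a. *Vim*, vimentin, had 1180, 1020 and 967 CPM in WT and 126, 83.5 and 41.5 CPM in MBD2a, a log2 fold change of -3.65 (SE 0.454, adjusted p = 4.94e-06). *Lum*, a proteoglycan of connective tissue, had 4.83, 2.83 and 1.27 CPM in WT and no read in any MBD2a library. This is at least 31.6-fold lower than the WT mean if 3 counts in the shallowest MBD2a library, at its total before TMM scaling, are taken as the limit. The list median was -2.41 also with *Lum* at that limit. *Col1a1*, a fibrillar collagen chain, was called lower than either line, with 61.8, 34.2 and 12.4 CPM in WT, 15.8, 24.9 and 28.1 CPM in *Mbd3* KO and 3.97, 4.42 and 3.41 CPM in MBD2a. *Fn1*, fibronectin, was not called. *Tagln*, a smooth muscle actin binding protein, was called higher, with 15.3, 17.2 and 19.9 CPM in WT and 59.4, 51.3 and 41.6 CPM in MBD2a.

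Other cell types that the cultures could hold were represented unevenly. For comparison, 16.9% of all genes tested were called higher and 13.7% lower. Early mesoderm and endothelium genes were called higher in 4 and lower in 4 of 15 cases (median 0.26). Without s01 or without s15, 2 were called higher, and 0 when the change was tested against the fold threshold itself. The mesoderm founder gene *T* was at 0.188, 0.248 and 0.195 CPM in WT and 0.374, 0.236 and 0.153 CPM in MBD2a. Neural crest genes were called lower in 4 and higher in 2 of 9 cases (median -0.97). Without s01, s02 or s15, 1 was called higher, and the median ran from -0.59 without s13 to -1.31 without s15. *Tfap2a*, a crest and surface ectoderm factor, had 66.8, 45.7 and 14.1 CPM in WT and 3.83, 2.68 and 4.00 CPM in MBD2a. *Sox10*, a crest and glia factor, was called higher than WT, with 0.322, 0.303 and 0.779 CPM in WT and 0.460, 2.36 and 10.7 CPM in MBD2a, where s13 lay within the WT range. Of the 5 blood and microglia genes tested, 3 were called higher (*Cd68*, *Csf1r* and *Itgam*), and 5 of 6 without s03 and 2 of 6 without s15. The defining blood marker *Ptprc* had no read in any WT or MBD2a library, and *Cx3cr1* had 1 read in the MBD2a libraries together.

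Interferon-stimulated genes (ISGs), which cells switch on after sensing viral nucleic acids through interferon signalling, were called higher in 30 of 34 cases and lower in 0, with a median of 2.59. Promoters are shown for 3 of them because the interferon-stimulated response element, read here as GAAA, any pair of bases and GAAA again, is the sequence through which this response is known to act. Searched on both strands, it was found in 16 of 34 windows of the list (47.1%) and in 3.23% of the windows of all genes tested. The stretches below are the 150 bases before the annotated start site on mm9, on the strand of the gene and 5′ to 3′, for *Isg15* (chr4:155574928-155575077, minus strand), *Ifit1* (chr19:34715211-34715360, plus strand) and *Rsad2* (chr12:27141318-27141467, minus strand). Capitals mark the GAAA letters of each match, which read TTTC where the match is on the other strand, and matches start at -78, -72 and -66 in *Isg15*, where they overlap, at -86 and -67 in *Ifit1* and at -120 in *Rsad2*.
Isg15: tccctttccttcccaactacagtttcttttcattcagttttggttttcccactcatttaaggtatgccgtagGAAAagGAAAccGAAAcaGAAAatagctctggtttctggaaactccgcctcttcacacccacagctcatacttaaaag
Ifit1: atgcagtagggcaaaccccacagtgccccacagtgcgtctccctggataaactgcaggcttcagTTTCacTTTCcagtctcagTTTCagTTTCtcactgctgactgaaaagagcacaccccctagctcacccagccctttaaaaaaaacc
Rsad2: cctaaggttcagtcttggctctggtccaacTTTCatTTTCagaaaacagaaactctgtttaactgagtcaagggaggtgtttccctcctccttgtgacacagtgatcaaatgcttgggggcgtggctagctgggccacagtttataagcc
*Isg15*, a ubiquitin-like modifier, had 0.295, 1.05 and 2.34 CPM in WT, 36.9, 28.3 and 28 CPM in *Mbd3* KO and 1.15, 2.68 and 17.6 CPM in MBD2a. MBD2a s13 lay within the WT range and s14 just above it, whereas s15 was far above. The log2 fold change was 2.53 against WT (SE 0.745, adjusted p = 0.00754) and -2.10 against *Mbd3* KO (SE 0.617, adjusted p = 0.0393). Without s15 it was 0.63 against WT (adjusted p = 0.416), and without s13, s14 or any single KO library the call against *Mbd3* KO was lost (adjusted p from 0.0717 to 0.177). *Rsad2*, the antiviral enzyme viperin, had 0.322, 0.990 and 0.852 CPM in WT and 2.13, 4.04 and 26.5 CPM in MBD2a, with no overlap (3.92, SE 0.730, adjusted p = 0.000216). *Ifit1*, which binds foreign RNA caps, had 0.349, 2.53 and 1.44 CPM in WT and 2.33, 2.95 and 23.6 CPM in MBD2a. The gain was thus uneven among the MBD2a clones, and the same order was seen in the sum over the list, with 628, 749 and 1340 CPM in MBD2a, 200, 261 and 297 CPM in WT and 1610, 1290 and 1280 CPM in *Mbd3* KO.

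Against *Mbd3* KO, 10 of the 34 ISGs were called lower in MBD2a and 0 higher, with a median of -1.01. Without s15, 20 of the 34 were called higher than WT, and a fit of the MBD2a and WT libraries alone called 21. The rise differed in size and in clones from gene to gene. *Oas2*, a sensor of double-stranded RNA, had 0.0805, 0.110 and 0.170 CPM in WT and 0.201, 0.471 and 6.07 CPM in MBD2a. *Parp14*, an ADP-ribosyltransferase, had 3.60, 6.22 and 5.11 CPM in WT and 30.7, 39.9 and 71.0 CPM in MBD2a, and *Irgm1*, an immunity-related GTPase, had 4.00, 4.21 and 4.60 CPM in WT and 16.4, 16.1 and 28.5 CPM in MBD2a, so that these were raised in each clone. *Irf1*, a transcription factor of the response, had 7.14, 13.4 and 27.3 CPM in WT and 85.1, 96.7 and 104 CPM in MBD2a. *Irf7*, its amplifier, had 0.107, 0.385 and 0.584 CPM in WT and 0.432, 1.27 and 8.79 CPM in MBD2a, and was called lower than *Mbd3* KO (17.4, 13.9 and 13.2 CPM). *Stat2*, *Ifit2* and *Cmpk2* were not called.

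Among nucleic acid sensors, 4 of 11 were called higher and 0 lower (median 0.33), and among MHC class I presentation genes 7 of 12 were called higher and 0 lower (median 1.03). *Ifih1* (MDA5) had 2.15, 2.09 and 3.17 CPM in WT and 7.86, 9.90 and 16.3 CPM in MBD2a, and *Ddx58* (RIG-I) 7.43, 13.4 and 8.62 CPM in WT and 28.7, 28.3 and 56.4 CPM in MBD2a. Tmem173, which encodes STING, had 1.4, 1.29 and 1.39 CPM in WT, 14, 11.2 and 11.3 CPM in *Mbd3* KO and 3.45, 4.57 and 8.77 CPM in MBD2a, and was called higher than WT and lower than *Mbd3* KO. The cytosolic DNA sensor Mb21d1 (cGAS), the adaptor *Mavs* and the editing enzyme *Adar* were not called. *Tapbp*, the chaperone tapasin that loads peptides, had 29.7, 37.7 and 38.8 CPM in WT and 156, 158 and 185 CPM in MBD2a (log2 fold change 2.23, SE 0.254, adjusted p = 2.28e-06). The light chain gene *B2m* and the heavy chain gene *H2-K1* were not called.

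Imprinted genes, expressed from a single parental copy, were called higher in 3 and lower in 6 of 17 cases (median -0.27). Over all genes tested, 16.9% were called higher and 13.7% lower, so the count of imprinted genes called higher was near that share. *H19* (chr7:149761434-149764048), a maternally expressed growth-restricting RNA, had 868, 1350 and 937 CPM in WT, 9600, 6110 and 7460 CPM in *Mbd3* KO and 1040, 1650 and 4080 CPM in MBD2a, so s13 lay within the WT range. It was called higher than WT (log2 fold change 1.10, SE 0.393, adjusted p = 0.0233) and lower than *Mbd3* KO (-1.78, SE 0.400, adjusted p = 0.00790). Without s15 the change against WT was 0.36 (adjusted p = 0.393), and it was also not called without s01 or s03, while that against *Mbd3* KO was not called without s14 (adjusted p = 0.0585). *Peg10*, a retrotransposon-derived placental gene, had 366, 832 and 598 CPM in WT, 5420, 3780 and 3940 CPM in *Mbd3* KO and 1100, 841 and 3210 CPM in MBD2a. It was likewise called between the lines, although s14 was barely above the highest WT library and s15 was far above the other MBD2a clones. *Cdkn1c* (chr7:150644255-150646955), the p57 cell cycle inhibitor of the same chromosome 7 region as *H19*, was called below either line, with 1200, 700 and 486 CPM in WT, 539, 764 and 1070 CPM in *Mbd3* KO and 150, 134 and 49 CPM in MBD2a (-2.84 against WT, SE 0.442, adjusted p = 4.16e-05). *Meg3*, a maternally expressed RNA, had 3.03, 37.0 and 9.62 CPM in WT and 0.144, 0.177 and 3.01 CPM in MBD2a. *Grb10*, an adaptor that dampens growth factor signalling, was not called and had a wide range between clones, with 510, 305 and 14 CPM in MBD2a and 707, 423 and 355 CPM in WT. Without s15, 1 imprinted gene was called higher, and without s03 2.

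Genes of cell division were called lower in 2 of 23 cases and higher in 0 (median 0.05). For comparison with both lists of this paragraph, 13.7% of all genes tested were called lower and 16.9% higher. *Plk1*, a mitotic kinase, had 111, 131 and 127 CPM in WT and 112, 152 and 119 CPM in MBD2a. The members called were the D cyclins *Ccnd1* and *Ccnd2*. The other G1 cyclin of the list, *Ccne1*, was not called, with 44.8, 40.6 and 62.5 CPM in WT and 49.1, 61.9 and 73.8 CPM in MBD2a. *Ccnd1* had 218, 232 and 104 CPM in WT and 40.4, 46.1 and 47.5 CPM in MBD2a. *Ccnd2*, the D cyclin of neural progenitors, had 775, 792 and 766 CPM in WT, 25.4, 72.3 and 78.0 CPM in *Mbd3* KO and 170, 196 and 66.5 CPM in MBD2a, and was called lower than WT (log2 fold change -2.43, SE 0.369, adjusted p = 3.30e-05) and higher than *Mbd3* KO (1.30, SE 0.358, adjusted p = 0.0281), the latter not without s04, s13 or s14 (adjusted p = 0.0949, 0.114 and 0.157). p53 targets and CDK inhibitors were called higher in 10 of 17 cases and lower in 1, which was *Cdkn1c* (median 1.06). *Perp*, a desmosomal p53 target, had 10.6, 13.9 and 19.4 CPM in WT and 76.4, 79.0 and 109 CPM in MBD2a (2.59, SE 0.268, adjusted p = 1.08e-06). *Cdkn2a*, which encodes p16 and p19ARF, had 5.48, 5.64 and 9.23 CPM in WT and 54.7, 24.7 and 43.6 CPM in MBD2a. *Cdkn1a*, the classical p53 target p21, fell short of the fold threshold, with 53.7, 67.4 and 61.5 CPM in WT and 122, 93.2 and 131 CPM in MBD2a.

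Cholesterol synthesis genes were called lower in 10 of 12 cases and higher in 0, with a median of -1.45 and little spread between clones. *Cyp51*, a sterol demethylase, had 186, 167 and 189 CPM in WT, 30.3, 34.7 and 34.4 CPM in *Mbd3* KO and 30.5, 30.6 and 32.9 CPM in MBD2a (-2.53, SE 0.205, adjusted p = 2.01e-07). All MBD2a libraries lay below WT and within the KO range for this gene.

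NuRD subunit genes were called higher in 2 and lower in 2 of 17 cases (median -0.23), and none of the 17 was called between MBD2a and *Mbd3* KO, where 5.25% of all genes were. The called members were *Mbd3* itself, *Hdac2*, *Mta3* and *Chd5*. *Hdac2*, a catalytic deacetylase subunit, had 315, 281 and 238 CPM in WT and 125, 120 and 95.4 CPM in MBD2a. *Mta3*, a scaffold subunit, had 31.2, 42.6 and 39.9 CPM in WT and 93.7, 107 and 153 CPM in MBD2a, while *Mta1* and *Mta2* were not called. *Chd5*, the neural remodeller paralog, had 3.92, 3.93 and 3.02 CPM in WT and 24.1, 20.2 and 14.3 CPM in MBD2a, and the main remodeller gene *Chd4* was not called. DNA methylation genes were called higher in 1 and lower in 2 of 11 cases (median -0.12), and in 0 and 0 without s15. *Dnmt3b*, a de novo methyltransferase, was the member called higher, with 17.4, 22.3 and 26.3 CPM in WT and 40.3, 45.3 and 64.8 CPM in MBD2a. *Tet3*, which oxidises methylated cytosine, was among those lower, with 205, 187 and 71.9 CPM in WT and 104, 66.4 and 55.8 CPM in MBD2a. No gene of this list was called lower without s01, without s02, with library-size scaling or when only the MBD2a and WT libraries were fitted, and 1 was without s14. Integrated stress response genes were called higher in 2 and lower in 3 of 12 cases (median -0.08). For comparison with each list of this paragraph, 16.9% of all genes tested were called higher and 13.7% lower. Hypoxia and glycolysis genes were called higher in 2 and lower in 3 of 17 cases (median -0.41), and over this list s13 lay at -1.40 relative to the WT mean, s14 at 0.04 and s15 at -0.25. Without s13, 1 of these genes was called lower and the median was -0.09, without s14 5 were called lower, and without s01, s03, s14 or s15 1 was called higher. BMP, Nodal and Wnt targets were called lower in 7 and higher in 2 of 15 cases (median 0.31), where 13.7% of all genes were lower. In this list the inhibitors *Id2*, *Id3* and *Id4* were among those lower. *Id1* of the same family was not, with raw counts of 1458, 1570 and 2723 in WT and 3179, 1788 and 2442 in MBD2a. Over the list 8 log2 fold changes were positive and 7 negative.

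The MBD2a line also had levels that neither WT nor the knockout showed. Among genes that averaged 1 or more in log2 CPM and overlapped neither line, 52 were called below and 29 called above both. Without these limits, 151 of the 16582 genes tested were called below both lines and 69 above both. A fit of only MBD2a and *Mbd3* KO called 23 genes higher and 218 lower than the knockout in all, so not all of the 29 were called there. Among the 52 were several endothelial genes, which were taken up after their values had been seen. *Cdh5* (chr8:106625525-106668402), VE-cadherin, had 23.7, 36.1 and 23.3 CPM in WT, 85.2, 146 and 174 CPM in *Mbd3* KO and 8.12, 2.68 and 13.2 CPM in MBD2a, with log2 fold changes of -1.78 against WT (SE 0.422, adjusted p = 0.00164) and -4.07 against *Mbd3* KO (SE 0.451, adjusted p = 1.11e-05). *Cldn5*, a tight junction protein of endothelium, had 7.35, 5.64 and 12.9 CPM in WT, 1.72, 12.8 and 10.4 CPM in *Mbd3* KO and 0.633, 0.854 and 0.331 CPM in MBD2a. *Kdr*, which encodes the VEGF receptor FLK1, had 16.4, 18.6 and 13.3 CPM in WT, 4.86, 19.4 and 15.9 CPM in *Mbd3* KO and 4.49, 1.41 and 1.73 CPM in MBD2a. The angiopoietin co-receptor gene *Tie1* had 8.48, 9.41 and 8.62 CPM in WT, 2.06, 15.1 and 10.6 CPM in *Mbd3* KO and 0.892, 0.943 and 1.22 CPM in MBD2a. That all MBD2a libraries were below every library of the other lines for these 4 genes follows from how the 52 were selected.

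For a list of 34 endothelial genes written after these values had been seen, which is therefore a description only, 17 were called lower and 2 higher than WT (median -1.44), and 17 lower and 0 higher than *Mbd3* KO (median -1.39). *Cd93*, an endothelial surface receptor, had 12.2, 12.2 and 8.45 CPM in WT, 2.23, 13.3 and 10.4 CPM in *Mbd3* KO and 0.288, 0.147 and 0.0765 CPM in MBD2a. *Icam2*, an endothelial adhesion protein, had 1.13, 2.01 and 1.17 CPM in WT and 0.0576, 0.0589 and 0.0255 CPM in MBD2a, which is under the level of 3 counts. *Tek* and *Eng* were the genes called higher than WT. *Eng*, a TGF-beta co-receptor also used by ESCs, had 5.21, 5.53 and 7.38 CPM in WT and 24.5, 22.4 and 40.1 CPM in MBD2a. *Pecam1*, shared by endothelium and ESCs, was not called against WT, with 8.86, 10.6 and 12.1 CPM in WT and 7.63, 12.1 and 9.56 CPM in MBD2a. In *Mbd3* KO s04, several of these genes were low as well, with *Tie1* at 2.06 CPM and *Cldn5* at 1.72 CPM.

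**Figure D4:**
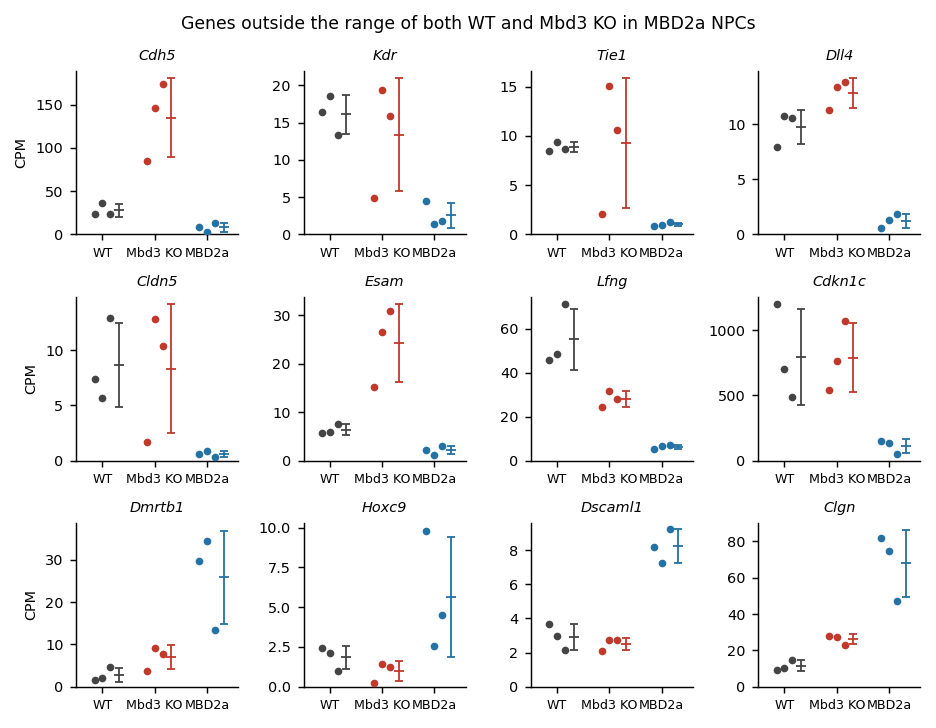
Each panel gives the CPM of a gene (y axis, from 0) in the 3 WT, 3 *Mbd3* KO and 3 MBD2a libraries as points, with the mean and SD (n = 3) beside them. The upper panels show genes below both other lines in MBD2a, such as *Cdh5* at 8.12, 2.68 and 13.2 CPM, and the lowest row shows genes above both, such as *Clgn* at 82.1, 74.5 and 47.3 CPM.

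Among the 29 genes above both lines, *Clgn*, a testis chaperone chosen after its values were seen, had 8.96, 10.6 and 14.8 CPM in WT, 28.1, 27.4 and 23.1 CPM in *Mbd3* KO and 82.1, 74.5 and 47.3 CPM in MBD2a. *Dscaml1*, a neuronal adhesion molecule chosen in the same way, had 3.68, 2.97 and 2.14 CPM in WT, 2.09, 2.72 and 2.72 CPM in *Mbd3* KO and 8.20, 7.25 and 9.23 CPM in MBD2a. Of the 4 genes of the Y chromosome that were tested, 3 were called lower in MBD2a than in WT, and *Eif2s3y* and *Ddx3y* were called lower than *Mbd3* KO as well. *Eif2s3y*, a translation initiation factor gene chosen after its values were seen, had 29.1, 17.4 and 20.6 CPM in WT, 6.86, 4.76 and 1.27 CPM in *Mbd3* KO and 0.230, 0.206 and 1.07 CPM in MBD2a. *Ddx3y*, an RNA helicase gene, had 7.49, 9.60 and 4.94 CPM in WT, 7.89, 7.37 and 3.17 CPM in *Mbd3* KO and 0.403, 0.412 and 1.30 CPM in MBD2a. *Uty*, a histone demethylase family gene, was called lower than WT and not against *Mbd3* KO (adjusted p = 0.0660), with 17.6, 13.9 and 9.25 CPM in WT, 1.94, 2.04 and 0.899 CPM in *Mbd3* KO and 0.173, 0.177 and 0.280 CPM in MBD2a. *Uba1y* was called between the lines, higher than WT and lower than *Mbd3* KO, with 0.0537, 0 and 0.390 CPM in WT, 3.66, 1.66 and 0.767 CPM in *Mbd3* KO and 0.259, 0.265 and 1.45 CPM in MBD2a. The part of the chromosome Y levels in other results was not tested.

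Ranked over all genes that averaged 1 or more in log2 CPM and did not overlap, the 10 largest rises against WT were *Slc13a4*, *Cubn*, *Sohlh1*, *Khdc3*, *Dnmt3l*, *S100g*, *Myh7b*, *Rsad2*, *Dglucy* and *Pga5*. *Slc13a4*, a sulfate transporter of placenta and yolk sac, had 0.188, 0.468 and 0.950 CPM in WT and 4.03, 7.92 and 39.0 CPM in MBD2a (log2 fold change 4.96, SE 1.09, adjusted p = 0.000878). *Myh7b*, a myosin heavy chain gene, had 1.72, 2.48 and 4.46 CPM in WT and 38.7, 41.9 and 54.7 CPM in MBD2a, with little spread between clones. The 10 largest falls were *Fabp7*, *Sparcl1*, *Msx3*, *Sox1ot*, *Akap6*, *Slc26a7*, *Lamp5*, *Marchf4*, *Myt1* and *Hes5*. *Sparcl1*, a matrix protein of glia and vessels, had 85.2, 51.2 and 24.7 CPM in WT, 0.800, 9.36 and 8.01 CPM in *Mbd3* KO and 0.460, 0.324 and 0.535 CPM in MBD2a, and was called lower than the knockout as well. *Sox1ot*, a noncoding RNA that overlaps the neural Sox1 locus, had 37.3, 32.4 and 29.8 CPM in WT and 0.288, 0.795 and 0.0510 CPM in MBD2a.

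Spread between MBD2a clones exceeded 2 on the log2 scale for 1075 genes (6.48%), against 987 (5.95%) in WT and 829 (5.0%) in *Mbd3* KO. The median range over genes was widest in WT, at 0.55, against 0.43 in MBD2a and 0.35 in *Mbd3* KO. MBD2a s15 lay more than 2 above both other clones for 197 genes and more than 2 below them for 104, s13 for 53 and 40, and s14 for 11 and 98. The 5 genes of widest range among those averaging 3 or more in log2 CPM were *Apoa1*, *Grb10*, *Muc13*, *Cubn* and *Col1a2*. *Apoa1*, an apolipoprotein of visceral endoderm, had 12.2, 1.47 and 72.5 CPM in MBD2a, and *Muc13*, an epithelial mucin, 18.4, 1.03 and 30.6 CPM. *Col1a2*, a fibrillar collagen chain, had 42.8, 32.6 and 2.62 CPM. Chromosome 1 as a whole also differed between clones. The median over its genes of log2 CPM minus the mean of the line was 0.133 in s13, 0.107 in s14 and -0.251 in s15, whereas every other chromosome lay between -0.053 and 0.060 in MBD2a. Against the WT mean, chromosome 1 was at -0.043, -0.071 and -0.377 in MBD2a and at -0.558, -0.281 and -0.185 in *Mbd3* KO. Of its 973 genes, 16.1% were called higher and 16.9% lower than WT, against 16.9% and 13.7% of all genes. The part of this shift in other results was not tested.

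CG dinucleotides near the start site, the sites of DNA methylation, were counted because the domain of MBD2 binds methylated CG. The 300-base windows of genes called higher had a median of 10 CG, those of genes called lower 17 and those of genes not called 19. The share of genes called higher was 29.2% for windows with 0 to 4 CG and 9.72% for windows with 30 or more, whereas the share called lower was 14% and 14.5%. Genes with few CG were also less abundant. Among genes below the median log2 CPM the share called higher was 33.6% at 0 to 4 CG and 18.4% at 30 or more, and among the more abundant genes it was 8.88% and 6.06%. The share called lower was 14.7% at 0 to 4 CG and 23.2% at 30 or more among genes below the median, and 10.7% and 10.8% among the others. Of the lists, ISG windows had a median of 6 CG, trophoblast windows 7.5, germline windows 17 and NuRD windows 33. Methylation itself was not measured in these libraries.

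**Figure D5:**
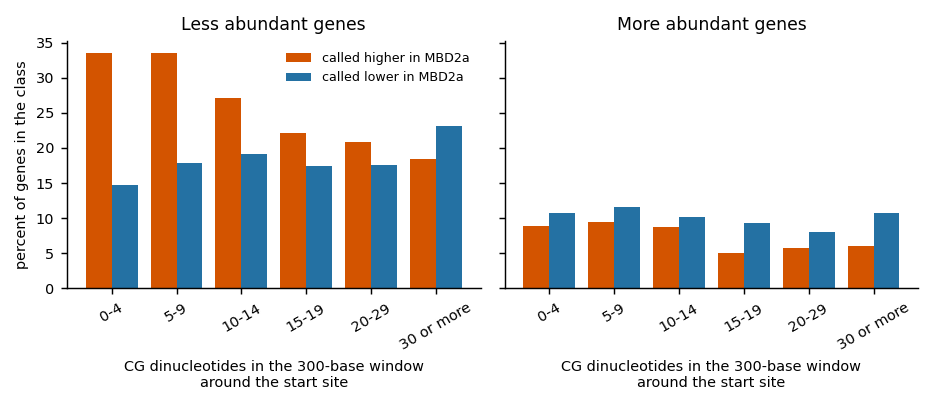
Bars give the percent of genes called higher (orange) or lower (blue) in MBD2a against WT NPCs (y axis, from 0) for 6 classes of CG number in the 300-base window around the start site (x axis), for genes below (left) and at or above (right) the median log2 CPM. In less abundant genes the share called higher was 33.6% at 0 to 4 CG and 18.4% at 30 or more, and the share called lower 14.7% and 23.2%.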

How the data were processed

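Poly(A) RNA of NPC cultures was sequenced as directional single-end libraries. Per the study's methods and the labels' processing notes the authors trimmed reads with Trim Galore, aligned them to mm9 with STAR and counted them per GENCODE gene with qCount of QuasR, and they deposited raw counts for 25400 genes. The strand setting of the counting is not given in the sources used here. Columns were assigned to lines by name and carry no replicate number, and whether clones of a line were differentiated on separate occasions is not stated for these libraries. The p-values rest on a spread within lines that was estimated over all 24 libraries, not over the compared libraries alone. Per the study, the MBD2t libraries are replicates of a single clone, so they add no spread between clones to this estimate. All 24 libraries were fitted with edgeR 4.0.16 in R 4.3.3 (filterByExpr by line, 16582 genes, TMM, quasi-likelihood F test), and calls required p below 0.05 after Benjamini-Hochberg adjustment together with a log2 fold change beyond 1 in either direction. CPM values use TMM-scaled library sizes and log2 CPM a prior count of 1.

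Gene lists (32 lists, 575 distinct genes, 554 tested) and the comparison itself were chosen with earlier results of these data known. Named genes are the key genes of each list, up to 3 called members with the largest change per list, the 10 largest rises and falls against WT, the 5 highest and lowest against Mbd3 KO among genes called in both contrasts, the 5 widest ranges among MBD2a clones, and list members that were not called; others are given as chosen after their values were seen. With 3 against 3 libraries an exact two-sided permutation test of a single value cannot go below 0.1, so it was not used. Windows around start sites were read from the mm9 genome. On simulated counts with known changes the fit recovered 22.8% of 2-fold, 84.3% of 4-fold and 88.7% of 8-fold changes of MBD2a against WT, with 6 false calls, in a run of 16323 genes. A true 2-fold change lies at the fold threshold of a call, which limits its recovery. The simulation changed few genes and drew each library independently, without differences shared by the genes of a clone. Its false calls therefore do not measure those in the real libraries. Alternatives were DESeq2 1.42.0, library-size scaling, no filter, other thresholds, a fit of only the lines compared and leaving out each library. Some list members enter the counts and are not reported here by name.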

Additional observations from a re-analysis of the deposited data

How the results depend on the processing

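Between MBD2a and WT, 5077 genes were called, and 9197 (4542 higher and 4655 lower) without a fold threshold and 2742 (1408 and 1334) with glmTreat, which tests the change against the threshold itself. Leaving out 1 library gave 4351 to 5433 genes, 2251 to 2967 higher, 2081 to 2466 lower. Between MBD2a and Mbd3 KO, 871 genes were called, and 1454 without a fold threshold (436 higher), 190 with glmTreat (8 higher and 182 lower) and 241 when only these lines were fitted (23 and 218). Leaving out 1 library gave 526 to 1288 genes, 86 to 213 higher and 420 to 1075 lower. The cause was not tested. With library-size scaling the median over all genes moved from -0.01 to 0.14, and 3194 genes were higher and 1946 lower than WT. Chromosome 1 was at 0.121 in s14 and -0.286 in s15 over genes with a mean CPM of at least 10. Of 46 single-gene changes, 11 were no longer called in the fit of only the lines compared, 15 with glmTreat, 2 without a filter, 2 with the legacy test and 1 without the point mutant line, the last pair of alternatives being chosen after seeing the data, and 0 with DESeq2, other scalings or a filter of 1 CPM in 3 libraries; none changed sign. With glmTreat the calls lost were those of Cdh5, Col4a1, Cyp26a1, Gata4, H19, Isg15, Mbd3, Nanog and Pou5f1 against WT (adjusted p from 0.0547 to 0.743) and of Ccnd2, H19, Isg15, Neurod4, Neurog2 and Pax6 against Mbd3 KO (adjusted p from 0.165 to 1.0). No paired analysis was possible because the columns carry no replicate numbers. Changes near 2-fold lie at the threshold of a call, and levels near 3 counts cannot be told from none.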
